A study of Macaca fascicularis with 9 samples.

Results

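Neurons with high PDE10A are the nuclei that the authors named neurons and in which PDE10A made up at least 0.001 of all UMIs (unique molecular identifiers, which count RNA molecules), that is at least 1000 CPM (the UMIs of a gene scaled to a fixed total per nucleus or sum). This limit selected 707 of 1714 neurons (41.2%), among 79994 nuclei of 9 animals in all, and left 1007 neurons with low PDE10A as the comparison. These nuclei were chosen by their PDE10A level itself, and RGS9 and RARB came with the working name of a striatal type, so all 3 are described below without a test. The limit cuts a range of PDE10A levels and does not by itself delimit a cell type. All 707 nuclei lay in cluster 11 of the authors' clusters, which also held the 1007 neurons below the limit.

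PDE10A encodes a phosphodiesterase that breaks down cAMP and cGMP, and it is best known from the medium spiny projection neurons of the striatum. These GABAergic neurons form a direct pathway, with the dopamine receptor DRD1 and the peptides substance P (from TAC1) and dynorphin (from PDYN), and an indirect pathway, with the dopamine receptor DRD2, the adenosine receptor ADORA2A and enkephalin (from PENK). The relay neurons of the thalamus are instead mostly glutamatergic, use the vesicular transporter SLC17A6 and carry factors such as TCF7L2 and LEF1.

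The nuclei came from frozen brain tissue labelled thalamus, of female cynomolgus monkeys (Macaca fascicularis), and were sorted by DNA stain and counted with 10x Genomics droplets. The labels give no genotype and no age, and each animal gave 1 sample. In the saline group 3 animals received 4 doses of saline into a vein. In the ASO group 3 animals received 1 intrathecal dose of 4 mg of an antisense oligonucleotide against MALAT1, a long RNA that stays in the nucleus. In the OTV group 3 animals received 4 doses of OTV:MALAT1 at 30 mpk into a vein, which is such an oligonucleotide on a carrier that binds the transferrin receptor. All brains were collected 2 weeks after dosing ended. No group received saline by the intrathecal route, so the agent and the injection cannot be told apart in the ASO group. Replicate numbers follow the order of deposit and only name the animals.

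Neurons with high PDE10A came almost entirely from 3 animals. Saline replicate 3 gave 342 of its 527 neurons (64.9%), ASO replicate 3 gave 199 of 467 (42.6%) and saline replicate 1 gave 137 of 364 (37.6%). These 3 animals, called the rich animals here, held 678 of the 707 nuclei (95.9%), and the other 6 animals held 29. The counts there were 3 of 23 neurons in saline replicate 2, 1 of 18 in ASO replicate 1 and 3 of 17 in ASO replicate 2, followed by 8 of 98, 6 of 112 and 8 of 88 in OTV replicates 1, 2 and 3.

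**Figure D1:**
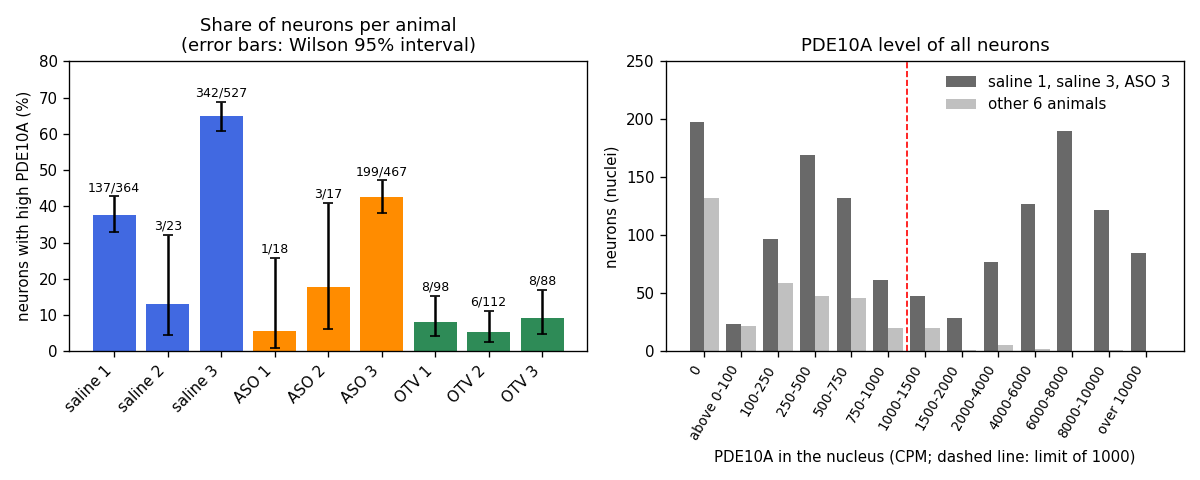
Left, the percentage of neurons with high PDE10A in each of the 9 animals (bars, with Wilson 95% intervals that cover counting error only, and the nuclei counted above each bar). Right, the number of neurons in bins of unequal width of the PDE10A level in CPM, with the dashed line at the limit of 1000 CPM. Counted together, the 3 animals with 678 of the 707 nuclei show a second peak above 4000 CPM. Saline replicate 1 alone, with a median of 2991 CPM, held 46 nuclei from 2000 to below 4000 CPM. It held fewer, 42, in the wider stretch from 4000 to below 8000 CPM, and 9 at 8000 CPM or more. These counts show no second peak in that animal. In the other 6 animals 20 of the 29 nuclei lie in the bin just above the limit.

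Averaged over animals, 38.5% ± 25.9 (SD, n = 3) of neurons passed the limit with saline. The ASO group averaged 21.9% ± 18.9 (SD, n = 3) and the OTV group 7.54% ± 1.94 (SD, n = 3). The 2-sided exact permutation test over the 280 partitions of the animals gave p = 0.111, where 0.00357 is the smallest possible. Each OTV value was smaller than each saline value (exact p = 0.1, the smallest that 3 against 3 allows, and 0.3 after Benjamini-Hochberg adjustment over 3 pairs). ASO against saline gave exact p = 0.5 and OTV against ASO exact p = 0.3, both with overlapping groups. The order of OTV and saline changed with the definition of the class. With a limit of 500 CPM saline replicate 2 had 26.1%, below OTV replicates 1 (30.6%) and 3 (35.2%). With a limit of 2000 CPM it had 0%, below OTV replicates 2 (1.79%) and 3 (2.27%). With 1 UMI of RGS9 also required at 1000 CPM it had 0%, below all OTV values (0.893% to 2.27%). With nuclei thinned to 1000 UMIs it had 30.4%, above all OTV values (at most 26.1%). The 3 rich animals also had the largest yields of neurons: neurons were 17.8%, 4.85% and 3.35% of nuclei in saline replicate 3, ASO replicate 3 and saline replicate 1, and between 0.143% and 2.94% in the other 6 animals. Whether the share moved with the yield among these 6 was not tested. ASO replicate 2 had a yield of 0.143% and a share of 17.6%, from 3 of 17 neurons. OTV replicate 2 had 2.94% and 5.36%, from 6 of 112 neurons. What each dissected piece held and the treatment cannot be told apart in these counts.

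Within the class PDE10A ranged from 1014 to 16192 CPM with a median of 6426 CPM, against a median of 220 CPM in the neurons below the limit. Levels ran on across the limit without a gap: 58 neurons lay from 800 to below 1000 CPM (the highest at 997), 36 from 1000 to below 1200 CPM and 62 from 1200 to below 2000 CPM. From 2000 to below 4000 CPM there were 82, while 319 lay from 4000 to below 8000 CPM and 208 at 8000 CPM or more. The 3 rich animals differed in level, with medians of 2991 CPM in saline replicate 1, 7602 CPM in saline replicate 3 and 6474 CPM in ASO replicate 3. Of their 678 nuclei 77 lay below 2000 CPM, while 21 of the 29 nuclei of the other animals did.

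The markers given with the label were far above the low neurons in each of the 3 rich animals. RGS9, a regulator that speeds the shutdown of G protein signals, stood at 483, 803 and 791 CPM in the high nuclei of saline replicate 1, saline replicate 3 and ASO replicate 3, against 151, 35.6 and 78.9 CPM in their low neurons. RARB, a retinoic acid receptor, stood at 300, 395 and 388 CPM against 71.1, 50.0 and 26.3 CPM. No high value overlapped a low one for either gene. RGS9 had at least 1 UMI in 92.9% of the 678 high nuclei, in 34.4% of the 680 low neurons and in 11.2% of oligodendrocytes. The median depths were 19966, 8193 and 5392 UMIs. After each nucleus was thinned to 1000 UMIs the shares with RGS9 were 46.6%, 7.79% and 2.04%. Oligodendrocytes were taken as a rough background for free RNA from other cells, and whether their UMIs are free RNA was not tested.

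Inside the class RGS9 stood higher in stretches with more PDE10A, though the 3 animals entered the stretches in different numbers. Over the rich animals together RGS9 stood at 237 CPM in the 77 nuclei from 1000 to below 2000 CPM of PDE10A, at 531 CPM in the 77 nuclei from 2000 to below 4000, at 764 CPM in the 317 nuclei from 4000 to below 8000 and at 853 CPM in the 207 nuclei above these. RARB was at 190, 345, 379 and 412 CPM in the same order. Within single animals RGS9 was at 299, 468, 605 and 666 CPM in saline replicate 1, at 13.1, 726, 809 and 840 CPM in saline replicate 3 and at 143, 608, 763 and 938 CPM in ASO replicate 3, and the lowest stretch held 40, 22 and 15 of their nuclei. RARB was lowest in the lowest stretch of each animal, at 237, 46.0 and 83.3 CPM, and above it had no common order. In saline replicate 3 the lowest stretch held 2 UMIs of RGS9 in all. Just outside the limit, in 45 neurons from 800 to below 1000 CPM, RGS9 was at 205 and RARB at 150 CPM. Over the 3 animals together the lowest stretch of the class thus lay nearer to its neighbours outside the limit than to the rest of the class. It also carried more of other cells' markers: the interneuron list summed to 384 CPM there against 51.0 to 69.5 CPM in the 3 higher stretches, and the oligodendrocyte list to 383 against 130 to 195 CPM. The interneuron list in that stretch differed between animals, at 121 CPM in saline replicate 1, 1556 CPM in saline replicate 3 and 345 CPM in ASO replicate 3.

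The label did not hold in most of the other 6 animals. RGS9 stood at 39.8, 11.8 and 33.4 CPM in the high nuclei of OTV replicates 1, 2 and 3, and it was not detected in those of saline replicate 2 and ASO replicate 1. These RGS9 levels rest on few UMIs. RGS9 was found in 2 of 8, 1 of 6 and 2 of 8 high nuclei of OTV replicates 1, 2 and 3. The high nuclei of saline replicate 2 held 32519 UMIs of all genes and the single one of ASO replicate 1 held 4556. The 15 genes of a striatal projection neuron list, RGS9 and RARB among them, summed to 8188, 9655 and 9269 CPM in the high nuclei of saline replicate 1, saline replicate 3 and ASO replicate 3. They summed to 1850, 1602 and 2958 CPM in OTV replicates 1, 2 and 3, to 1322 CPM in saline replicate 2 and to 220 CPM in ASO replicate 1. The 3 nuclei of ASO replicate 2 were the exception, with 10741 CPM, and all 3 had doublet scores above the limit given below for the top scores.

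Genes of thalamic neurons were found in the OTV animals, in high nuclei and low neurons alike. The 10 thalamic relay genes summed to 5152, 6253 and 5732 CPM in the high nuclei of OTV replicates 1, 2 and 3 and to 5462, 4218 and 5288 CPM in their low neurons. Over the rich animals together they summed to 1653 to 2475 CPM in the stretches of the high class. There RORA alone stood at 1999, 2300 and 2172 CPM in the high nuclei of saline replicate 1, saline replicate 3 and ASO replicate 3. In their neurons below 800 CPM of PDE10A the list summed to 1363 CPM. LEF1, a transcription factor of thalamic relay neurons and also of brain vessel cells, was at 537, 342 and 251 CPM in the high nuclei of OTV replicates 1, 2 and 3 and at 383, 92.0 and 198 CPM in their low neurons. In saline replicate 1, saline replicate 3 and ASO replicate 3 it was at 0.39, 1.07 and 4.24 CPM in the high nuclei. In the low neurons of the same animals it was at 33.7, 0 and 42.0 CPM. NTNG1, a netrin relative on thalamic axons, was at 358, 1248 and 317 CPM in the high nuclei of OTV replicates 1, 2 and 3 and at 265, 327 and 259 CPM in their low neurons, against 5.06, 30.8 and 26.4 CPM in the high nuclei of the rich animals. OTX2, a factor of thalamic inhibitory neurons, was at 298, 82.4 and 134 CPM in the high nuclei of OTV replicates 1, 2 and 3 and at 163, 136 and 140 CPM in their low neurons. It had no UMI in the high nuclei of the 3 rich animals. FLT1, an endothelial receptor, reached 1910 CPM in the 8 nuclei of OTV replicate 1, 892 CPM in the 3 of saline replicate 2 and 5487 CPM in the single nucleus of ASO replicate 1, so markers of vessel cells moved with these few nuclei, and their part was not tested. No striatal name is given here to the nuclei of the other 6 animals. In the rich animals the striatal list in the nuclei below 2000 CPM of PDE10A summed to 6496, 2678 and 5224 CPM in saline replicate 1, saline replicate 3 and ASO replicate 3, against 8229 to 10401, 8989 to 10042 and 9100 to 10026 CPM in the 3 higher stretches of the same animals. The 40 lowest nuclei of saline replicate 1 still held RGS9 UMIs in 77.5% of cases, and the 22 of saline replicate 3 in 9.09%, so the lowest stretch was not alike in the 3 animals.

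**Figure D2:**
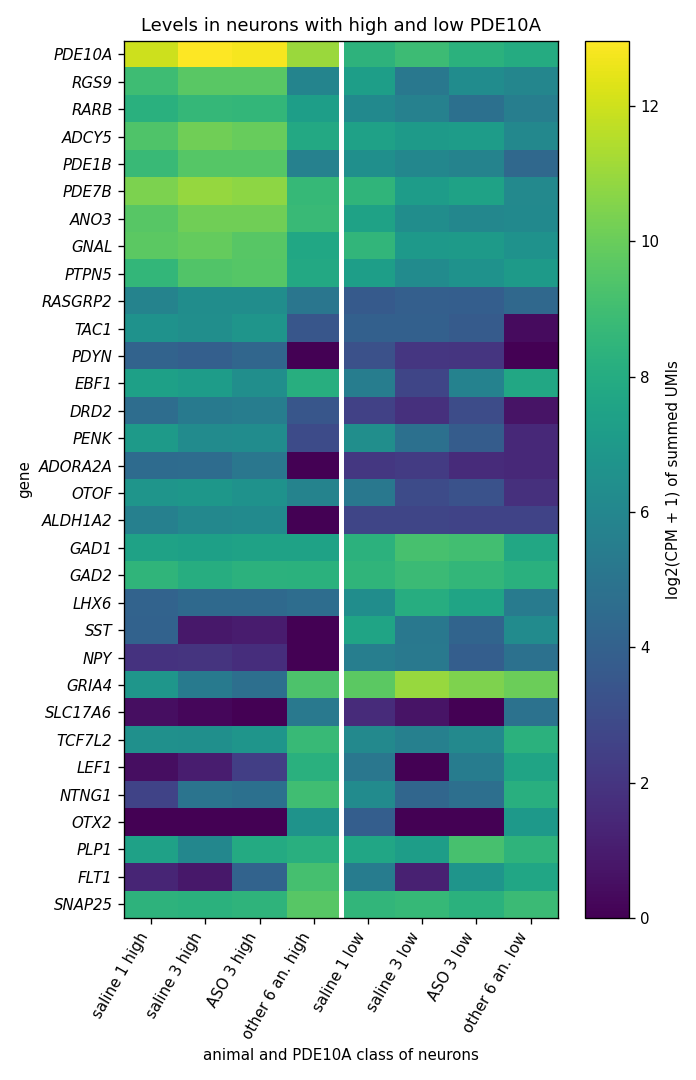
Level of 32 genes (rows; colour gives log2 of CPM plus 1 of UMIs summed over nuclei) in neurons with high PDE10A (left 4 columns) and low PDE10A (right 4 columns) of saline replicate 1, saline replicate 3, ASO replicate 3 and the other 6 animals together. RGS9, RARB, ADCY5, PDE1B and ANO3 are bright in the high nuclei of the 3 rich animals, and LEF1, NTNG1, OTX2 and FLT1 in those of the other 6; colours compare columns within a gene, not genes with each other.

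Depth moved with the class, and PDE10A in oligodendrocytes was higher in the 3 rich animals. The high nuclei were deeper than the low neurons in each rich animal, with median totals of 19730 against 13979 UMIs in saline replicate 1, 21170 against 7517 in saline replicate 3 and 18329 against 4792 in ASO replicate 3. No deposited nucleus exceeded 29971 UMIs, and 38 of the high nuclei held 28000 UMIs or more. PDE10A in oligodendrocytes, which should lack it, stood at 17.0, 276 and 60.3 CPM in saline replicate 1, saline replicate 3 and ASO replicate 3, and between 1.77 and 6.61 CPM in the other 6 animals. Whether this is free RNA was not tested. The median doublet score, which is higher for likely mixtures of 2 nuclei, was 0.00258 in high nuclei and 0.00293 in low neurons. The median of the high nuclei was 0.0541 in saline replicate 2, 0.0603 in OTV replicate 2 and higher still in ASO replicate 2, above the limit of 0.0304 that marks the neurons with the top scores. When neurons above that limit were left out, 137, 333 and 195 high nuclei remained in saline replicate 1, saline replicate 3 and ASO replicate 3, and none in saline replicate 2 or ASO replicate 2. No barcode was shared between high nuclei of different animals, and 15 of them had a barcode that also occurred in another animal, among 760 such barcodes over all nuclei.

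To find which other genes go with high PDE10A, UMIs were summed per animal and class in the 3 animals with at least 10 nuclei in each, and the classes were compared within animals by edgeR's quasi-likelihood test. Since the classes were cut on PDE10A in the same nuclei, the test describes what goes with PDE10A among these neurons and adds no evidence that the class exists. Of 12851 genes tested 3354 (26.1%) passed an adjusted p of 0.05, with 1678 (13.1%) higher and 1676 (13.0%) lower in the high nuclei, and 5102 had an unadjusted p under 0.05. A gene passed the filter on low counts with at least 3.58 CPM in 3 of the 6 sums. Of the higher genes 287 (17.1%) reached this only in the high class and of the lower genes 562 (33.5%) only in the low class. Such a gene had to differ to be tested, so its call and size are a description. The count of called genes was 755 without ASO replicate 3, 960 without saline replicate 3 and 4802 without saline replicate 1. With UMI sums thinned to equal totals, an alternative chosen after seeing the data, 2874 genes passed and 2793 of the 3354 remained in the same direction.

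The genes with the smallest adjusted p on the higher side included MME, the membrane peptidase neprilysin, which cleaves enkephalins and other peptides. It stood at 129, 212 and 230 CPM in the high nuclei of saline replicate 1, saline replicate 3 and ASO replicate 3, against 1.99, 6.25 and 2.53 CPM in the low neurons, with no overlap (log2 difference 6.07, SE 0.26, adjusted p = 0.00025 by edgeR with Benjamini-Hochberg adjustment). The neuronal transcription factor ONECUT2 was at 28.4, 56.5 and 64.3 CPM against 0.99, 1.25 and 1.01 CPM (log2 difference 5.66). ALDH1A2, which makes retinoic acid, was at 48.3, 65.6 and 72.8 CPM against 5.62, 5.62 and 5.06 CPM (3.74). The others named by the same rule were PIK3R5, a regulatory subunit of a PI3 kinase (5.70), SH3RF2 (5.44), RHAG (3.53), the orphan receptor GPR149 (3.27), SEC14L5 (3.17), the sulfotransferase UST (3.16) and TAC1 (3.05). The rule took only genes higher in all 3 animals. MME, ONECUT2 and PIK3R5 passed the filter only through the high class. ONECUT2 had 3, 2 and 2 UMIs in the low neurons of saline replicate 1, saline replicate 3 and ASO replicate 3, PIK3R5 had 4, 6 and 3 and MME had 6, 10 and 5.

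Of the 10 genes named on the lower side SOX6, a transcription factor of interneurons from the medial ganglionic eminence, stood at 6.23, 32.5 and 17.9 CPM in the high nuclei against 211, 1047 and 590 CPM in the low neurons (log2 difference -4.74, SE 0.17, adjusted p = 0.00025 by edgeR with Benjamini-Hochberg adjustment). NXPH1, a secreted ligand of neurexins, was at 16.8, 44.6 and 29.7 CPM against 643, 2574 and 1366 CPM (-5.27). PROX1, a homeobox factor, was at 2.34, 3.37 and 2.61 CPM against 51.6, 129 and 113 CPM (-4.83). The remaining 7 were ST18 (-4.82), NXPH2 (-4.08), the factor NFIA (-3.87), DENND2A (-3.81), CACHD1 (-3.76), the protease PCSK5 (-3.19) and the adhesion molecule SDK2 (-2.97). High and low values of SOX6, NXPH1 and PROX1 did not overlap. The size of these differences moved with the PDE10A limit. It was -5.83, -6.84 and -6.70 for SOX6, NXPH1 and PROX1 with a limit of 2000 CPM. With a limit of 500 CPM, which brings in the OTV animals, it was -1.78, -0.70 and -2.21. PROX1 passed the filter only through the low class.

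The striatal projection neuron list was chosen with earlier results of these data known. Of its 20 genes 15 were found by symbol, and PPP1R1B, BCL11B and FOXP1 were among those not found. With RGS9 and RARB left out, 11 of 13 tested genes were higher in the high nuclei, 1 was lower and 1 did not pass, beside 13.1% of all genes higher. The median log2 difference of the list was 2.49, against -0.02 over all genes tested. ADCY5, the main adenylyl cyclase of striatal neurons, stood at 681, 1142 and 979 CPM in the high nuclei and at 173, 133 and 143 CPM in the low neurons of saline replicate 1, saline replicate 3 and ASO replicate 3 (log2 difference 2.90, SE 0.28, adjusted p = 0.00219 by edgeR with Benjamini-Hochberg adjustment). PDE1B, a calcium-dependent phosphodiesterase, was at 441, 760 and 753 CPM against 88.0, 63.1 and 55.2 CPM (3.50). ANO3, a channel relative linked to dystonia, was at 764, 1137 and 1136 CPM against 178, 81.2 and 63.8 CPM (3.63). In all 3 genes the high values lay above all low values.

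The other striatal genes that were higher were the sodium channel subunit SCN4B (2.95), the phosphatase PTPN5 (2.76), the exchange factor RASGRP2 (2.68), GNAL, the stimulatory G protein of striatal neurons (2.49), the cAMP-regulated phosphoprotein ARPP21 (1.94), the potassium channel partner KCNIP2 (1.67), the small GTPase RASD2 (1.67) and the homeobox factor MEIS2 (1.02). MEIS2 stood at 1478, 1394 and 1337 CPM against 1354, 524 and 835 CPM. The classes thus overlapped, with the low neurons of saline replicate 1 above the high nuclei of ASO replicate 3. MEIS2 did not pass without ASO replicate 3 or without saline replicate 3. SYNPR, a synaptic vesicle protein, was lower (-0.63, adjusted p = 0.0499 by edgeR) and did not pass with DESeq2 size factors. FOXP2 had a log2 difference of 0.51 (adjusted p = 0.171). Without ASO replicate 3 the count of higher striatal genes was 6 of 13, without saline replicate 3 it was 9 and without saline replicate 1 it was 11. With at least 5 nuclei per class, which brings in the OTV animals, it was also 6, with no filter on low counts it was 7, and with a PDE10A limit of 500 CPM it was 3.

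**Figure D3:**
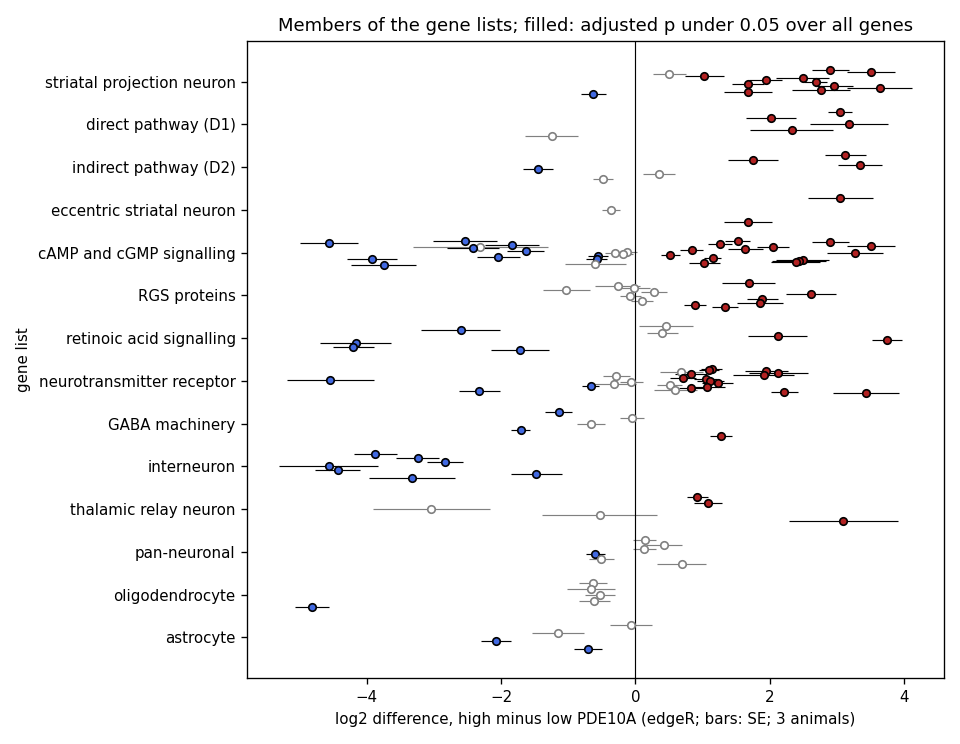
Log2 difference of neurons with high minus low PDE10A (x axis; bars give the SE from edgeR over 3 animals) for the tested members of 14 gene lists (rows), with RGS9 and RARB left out; filled red or blue points passed an adjusted p of 0.05 over all genes. In the striatal list 11 of 13 points are filled on the higher side, and in the interneuron list the 7 genes that passed the filter on low counts, of 13, are filled on the lower side.

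The cAMP and cGMP pathway, on whose products PDE10A acts, was split between both directions. Of 29 tested members 14 were higher, 10 were lower and 5 did not pass, beside 13.1% of all genes higher and 13.0% lower, and the median log2 difference was -0.13. Without ASO replicate 3 the counts were 5 higher and 3 lower, without saline replicate 3 they were 8 and 6, and without saline replicate 1 they were 14 and 10. Among the cyclases, which make the messengers, ADCY5, ADCY3 (1.52) and ADCY9 (1.26) were higher and so were the guanylyl cyclase subunits GUCY1A1 (2.43), GUCY1A2 (2.38) and GUCY1B1 (1.02), the receptor of nitric oxide. ADCY8, a calcium-activated cyclase, was lower, at 15.6, 10.4 and 7.51 CPM against 175, 510 and 303 CPM (-4.55), as was ADCY2 (-2.54). The class thus differed in which cyclases it carried.

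Among the phosphodiesterases, which remove the messengers, PDE7B was at 1358, 1948 and 1706 CPM in the high nuclei of saline replicate 1, saline replicate 3 and ASO replicate 3 against 356, 145 and 178 CPM in the low neurons (log2 difference 3.27, SE 0.42, adjusted p = 0.00552 by edgeR with Benjamini-Hochberg adjustment). PDE1B (3.50), PDE2A (2.04), PDE4A (1.64) and PDE4B (0.84) were higher as well. PDE3A (-2.42), PDE1A (-1.84) and PDE4D (-1.64) were lower, and PDE4D stood at 636, 438 and 310 CPM against 1468, 1709 and 1869 CPM. The stimulatory G proteins moved in opposite directions: GNAL was at 831, 943 and 775 CPM against 372, 126 and 133 CPM, while GNAS, its relative in most other cells, was at 29.2, 12.1 and 11.7 CPM against 249, 362 and 296 CPM (-3.92, adjusted p = 0.00308 by edgeR). Of the kinase subunits PRKAR2B (1.15) and PRKACB (0.52) were higher and PRKAR2A (-2.04), PRKAR1B (-0.56) and PRKG2 (-3.75) were lower, PRKG2 having passed the filter only through the low class.

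RGS9's relatives and partners were higher or did not pass. Of 12 tested RGS genes and partners 6 were higher and none lower, beside 13.1% of all genes higher and 13.0% lower, with a median log2 difference of 0.58; without ASO replicate 3 the count of higher genes was 2. RGS2 passed the filter only through the high class. RGS8 was at 76.0, 114 and 91.4 CPM against 28.5, 16.2 and 10.6 CPM (2.61). RGS14 (1.88), RGS20 (1.86), RGS2 (1.69), GNB5, the obligate beta subunit of RGS9 (1.33), and RGS7BP, a membrane anchor of RGS9-type proteins (0.89), were also higher. In retinoic acid signalling, the pathway of RARB, ALDH1A2 and the receptor RXRG (2.11) were higher of 8 tested, while 4 were lower, among them CRABP1 (-4.20), RXRA (-2.60) and DHRS3 (-1.72), beside 13.1% of all genes higher and 13.0% lower. Without ASO replicate 3 there were 1 higher and 2 lower, and the counts were the same without saline replicate 3. The 4 lower genes passed the filter only through the low class. CRABP1, a retinoic acid carrier, was at 0.39, 2.45 and 2.28 CPM against 19.2, 65.0 and 32.4 CPM.

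Of 23 neurotransmitter receptor genes tested 14 were higher, 3 lower and 6 did not pass, beside 13.1% of all genes higher and 13.0% lower, with a median log2 difference of 0.83. The serotonin receptor HTR4 was at 234, 369 and 235 CPM against 74.8, 70.6 and 68.3 CPM, with no overlap (log2 difference 2.22, SE 0.20, adjusted p = 0.00155 by edgeR with Benjamini-Hochberg adjustment). The adenosine receptor ADORA1 (3.43), the metabotropic glutamate receptors GRM3 (2.13), GRM7 (1.91) and GRM5 (0.83), and the opioid receptors OPRK1 (1.95), OPRM1 (1.13) and OPRD1 (1.10) were higher. ADORA1 and OPRK1 passed the filter only through the high class. AMPA receptor subunits diverged: GRIA3 (1.04) and GRIA2 (0.71) were higher, and GRIA4 was lower at 109, 38.9 and 25.5 CPM against 839, 2025 and 1391 CPM (-4.54). The serotonin receptor HTR2C (-2.32) was also lower. Without ASO replicate 3 the count of higher receptors was 3 and without saline replicate 3 it was 6, of 23 in each case.

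Of the 13 genes of the interneuron list 7 passed the filter on low counts, and these 7 were lower in the high nuclei, beside 13.0% of all genes lower, with a median log2 difference of -3.33. CALB2, SST, NPY, NKX2-1 and TAC3 passed the filter only through the low neurons, where they are high, so the count and the median are a description: NKX2-1 had 2, 2 and 0 UMIs and CALB2 8, 5 and 4 UMIs in the high nuclei of the 3 animals. With no filter on low counts 7 of the 13 were lower. Without ASO replicate 3 the count was 4 of 8 tested, without saline replicate 3 it was 5 of 8 and without saline replicate 1 it was 6 of 7. The median log2 difference was -3.17, -2.98 and -4.51 in the same order, and -3.98 with a PDE10A limit of 2000 CPM. LHX6, a factor of interneurons, was at 16.8, 20.2 and 20.6 CPM against 80.4, 271 and 187 CPM (-2.83). The peptide gene SST was at 15.6, 0.77 and 0.98 CPM against 192, 35.0 and 17.2 CPM (-3.87), so that the high value of saline replicate 1 nearly met the low value of ASO replicate 3. CALB2 (-4.43), NKX2-1 (-4.57), TAC3 (-3.33), NPY (-3.24) and NOS1 (-1.47) completed the 7. NOS1 passed in 7 of 15 settings, and it did not pass when any 1 of the 3 animals was left out. Of the GABA genes GAD1 was lower, at 176, 164 and 178 CPM against 325, 582 and 527 CPM (-1.14), ABAT, which degrades GABA, was higher (1.27), and GAD2 had a log2 difference of -0.05 (adjusted p = 0.855 by edgeR). Both classes thus carried the genes of GABA synthesis.

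Among thalamic relay genes TCF7L2 (0.92), RORA (1.08) and PRKCD (3.09) were higher of 5 tested, beside 13.1% of all genes higher, and LEF1 (-3.04, adjusted p = 0.0531 by edgeR) and NTNG1 (-0.53) did not pass. No relay gene was higher without ASO replicate 3 or without saline replicate 3, and LEF1 was lower without saline replicate 3. PRKCD passed the filter only through the high nuclei, with 23, 1 and 0 UMIs in the low neurons of saline replicate 1, saline replicate 3 and ASO replicate 3. With no filter on low counts 2 of the 10 relay genes were higher and the median log2 difference of the list was -0.30, against 0.92 over the 5 tested. TCF7L2 stood at 91.5, 87.9 and 108 CPM against 68.8, 48.7 and 67.8 CPM. The vesicular transporter SLC17A6 had at most 0.39 CPM in the high nuclei of the 3 rich animals, and none of the 5 thalamic inhibitory genes passed the filter on low counts. Markers of other cells were not higher in the high nuclei: 1 of 5 oligodendrocyte, 2 of 2 OPC (oligodendrocyte precursor), 2 of 4 astrocyte and 2 of 2 endothelial genes were lower and the rest did not pass, beside 13.0% of all genes lower. Without the replicate block no astrocyte and no endothelial gene passed, and without ASO replicate 3 the counts were 1 of 4 astrocyte genes and 0 of 1 endothelial gene. The OPC count was 1 of 2 without ASO replicate 3 and likewise without saline replicate 3. SLC1A3, 1 of the 2 lower astrocyte genes, passed the filter only through the low class. The 5 oligodendrocyte genes summed to 200, 94.4 and 289 CPM in the high nuclei against 358, 613 and 1080 CPM in the low neurons. Glial RNA in the low neurons therefore moved with the class, and its part in the lower genes was not tested. Of 6 pan-neuronal genes 1, STMN2, was lower (-0.60; it passed in 9 of 15 settings, not without ASO replicate 3 or without saline replicate 3), and SNAP25 stood at 327, 309 and 347 CPM against 367, 414 and 312 CPM.

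Genes of both dopamine pathways were higher in the class. Of 8 direct pathway genes 5 passed the filter on low counts, ISL1 and PDYN only through the high nuclei, where ISL1 had 18, 39 and 11 UMIs against 4, 1 and 0 in the low neurons. Of the 5 tested direct pathway genes TAC1 (3.05), ISL1 (3.17), EBF1 (2.32) and PDYN (2.02) were higher, and of 6 tested indirect pathway genes ADORA2A (3.34), DRD2 (3.12) and PENK (1.75) were higher and SP9 was lower (-1.46), beside 13.1% of all genes higher and 13.0% lower. With no filter on low counts 4 of 8 direct pathway genes were higher and 1 was lower, and 2 of 7 indirect pathway genes were higher and 1 was lower. ADORA2A and DRD2 passed the filter only through the high nuclei, and ADORA2A had 10, 6 and 4 UMIs in the low neurons. Without ASO replicate 3, and likewise without saline replicate 3, the higher genes numbered 2 of the direct and 2 of the indirect list. DRD2 stood at 23.8, 40.3 and 44.1 CPM against 4.63, 2.50 and 7.08 CPM, and TAC1 at 98.2, 83.2 and 106 CPM against 14.9, 15.0 and 12.1 CPM. PENK did not pass without ASO replicate 3 or without saline replicate 3, nor did PDYN, and EBF1 did not pass without ASO replicate 3 or without saline replicate 1. DRD1 was too low to test, at 3.12, 1.84 and 2.28 CPM against 1.32, 0 and 0.51 CPM. Of 3 tested genes of the eccentric type of striatal neuron OTOF (3.05) and CACNG5 (1.68) were higher and TSHZ1 did not pass (-0.36). None of the 3 passed without ASO replicate 3, and with no filter on low counts 1 of 4 was higher. OTOF was at 109, 116 and 96.6 CPM against 35.4, 6.87 and 8.60 CPM, and its adjusted p by edgeR or DESeq2 ran up to 0.169 over the settings.

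Single nuclei mostly held UMIs of 1 pathway. With TAC1, DRD1 and PDYN as direct and PENK, DRD2 and ADORA2A as indirect genes, 122 of the 342 high nuclei of saline replicate 3 had direct genes only, 130 had indirect genes only, 46 had both and 44 had neither. The counts were 43, 51, 20 and 23 of 137 in saline replicate 1 and 62, 86, 19 and 32 of 199 in ASO replicate 3. Indirect genes alone were thus the most frequent case in each of the 3 animals, at 37.2% (saline replicate 1), 38.0% (saline replicate 3) and 43.2% (ASO replicate 3). Nuclei with both were deeper than the rest and those with neither were shallower, with medians of 23588 and 6486 UMIs in saline replicate 3, so these shares move with depth. They also move with how often each gene was detected. Of the 678 high nuclei 41.7% had a UMI of TAC1, 17.4% of PDYN and 3.83% of DRD1, against 42.2% of PENK, 32.9% of DRD2 and 28.5% of ADORA2A. The shares therefore do not compare the numbers of direct and indirect pathway neurons. Oligodendrocytes held UMIs of these genes too: TAC1 stood at 5.00, 25.4 and 19.6 CPM and PENK at 7.67, 38.0 and 15.1 CPM in saline replicate 1, saline replicate 3 and ASO replicate 3. Whether these UMIs are free RNA was not tested.

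High nuclei with an ADORA2A UMI held DRD2 at 63.8, 78.9 and 81.6 CPM in saline replicate 1, saline replicate 3 and ASO replicate 3, and those without held 11.7, 21.9 and 20.7 CPM. EBF1, a factor of direct pathway neurons, stood at 3.36, 0.95 and 7.65 CPM with ADORA2A and at 216, 208 and 133 CPM without. RGS9 was at 604, 799 and 868 CPM with ADORA2A and at 446, 804 and 744 CPM without, so both kinds of nuclei carried it. A DRD2 UMI gave a like split in saline replicate 1, with EBF1 at 0 CPM in high nuclei with it and 222 CPM in those without, and PENK at 282 and 85.9 CPM. TAC1 stood at 96.0 CPM with DRD2 and 98.9 CPM without in saline replicate 1, at 25.4 and 124 CPM in saline replicate 3 and at 8.79 and 174 CPM in ASO replicate 3, so it was split in the last 2 animals and not in the first.

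Over 5130 genes compared between high nuclei with direct genes only and with indirect genes only, 38 (0.741%) were at least 2-fold higher with the direct genes in 3 of 3 animals and 11 (0.214%) with the indirect genes. These counts are a description with no test. RELN, a secreted matrix protein, stood at 407, 664 and 466 CPM with the direct genes in saline replicate 1, saline replicate 3 and ASO replicate 3, and at 39.0, 28.4 and 14.7 CPM with the indirect genes. FOXP2, which did not separate high from low PDE10A, was at 1287, 615 and 929 CPM against 131, 83.8 and 41.3 CPM. ERBB4, a neuregulin receptor, was at 3059, 2119 and 3037 CPM against 384, 485 and 150 CPM.

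On the indirect side the glutamate receptor GRIK3 was at 125, 136 and 146 CPM against 14.9, 6.48 and 13.1 CPM with the direct genes, and the receptor phosphatase PTPRM was at 745, 707 and 662 CPM against 218, 132 and 131 CPM. NOS1, the neuronal nitric oxide synthase, was at 49.0, 121 and 61.6 CPM against 4.98, 7.28 and 4.03 CPM. Inside the high class NOS1 thus lay with the indirect genes, while its difference between the high and low classes rested on all 3 animals, as given above. GRIK3 and PTPRM, both on the indirect list, had not passed between high and low PDE10A (log2 differences of -0.49 and 0.35).

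**Figure D4:**
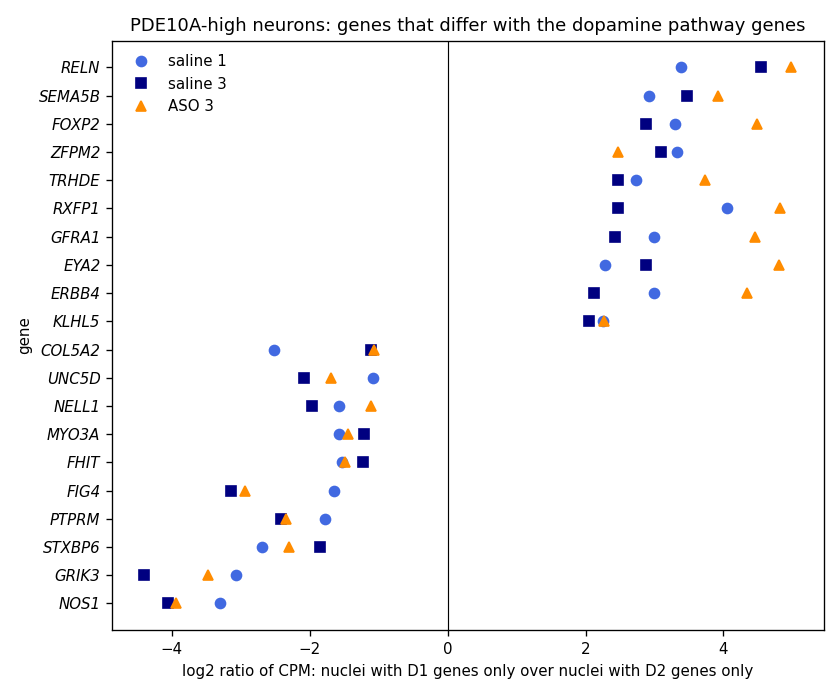
Log2 ratio of CPM between PDE10A-high nuclei with UMIs of direct pathway (D1) genes only and those with indirect pathway (D2) genes only (x axis), for the 10 genes on each side with the largest ratio in the animal where it was smallest (rows), in saline replicate 1 (circles), saline replicate 3 (squares) and ASO replicate 3 (triangles). Each of the 20 genes lies on the same side in all 3 animals, from RELN at 3.38 to 4.99 down to NOS1 at -3.30 to -4.06; the genes were chosen for this.

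The high nuclei of saline replicate 1 stood apart from those of the other 2 rich animals. Of 5483 genes with a mean of at least 20 CPM over the 3 animals, 93 were at least 2-fold above and 65 at least 2-fold below both others in saline replicate 1 (2.88%). The counts were 6 and 21 in saline replicate 3 (0.492%) and 22 and 18 in ASO replicate 3 (0.730%). These are single animals, so no test was made. PDE1A, a calcium-dependent phosphodiesterase, stood at 222 CPM in saline replicate 1 against 24.1 and 22.5 CPM in saline replicate 3 and ASO replicate 3, and HTR2C at 110 against 12.4 and 4.90 CPM. In the low neurons of the same animals PDE1A stood at 674 against 241 and 59.2 CPM, and HTR2C at 396 against 132 and 32.4 CPM. For PDE1A and HTR2C the difference was thus not particular to the high class.

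The matrix gene EPYC (4.67 against 55.0 and 112 CPM) and the orphan receptor GPR139 (3.90 against 32.8 and 33.9 CPM) were low in saline replicate 1, as were PIK3R5 (30.0 against 136 and 135 CPM) and PDE10A itself (3964 against 7993 and 7010 CPM). In ASO replicate 3 the cGMP-dependent kinase PRKG1 was at 77.3 CPM against 838 and 344 CPM in saline replicates 1 and 3, and OCA2 was at 230 against 63.5 and 88.7 CPM. With 1 treated animal, treatment and animal cannot be told apart.

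MALAT1, the target of the treatments, took a larger share of UMIs in high than in low neurons of each rich animal. It made up 7.12% of UMIs in the high nuclei and 4.99% in the low neurons of saline replicate 1, 6.56% and 4.85% in saline replicate 3, and 9.03% and 5.43% in ASO replicate 3. The Wilson 95% interval of the high class of ASO replicate 3 ran from 8.99% to 9.06%, and such intervals do not cover the spread between animals. The log2 difference was 0.85 (SE 0.31) and did not pass (adjusted p = 0.0901 by edgeR with Benjamini-Hochberg adjustment), and the high values of all 3 animals lay above all low values. Over the alternatives the adjusted p ran from 0.00283 to 0.493 and passed in 3 of them, the DESeq2 Wald test, no filter on low counts, and without saline replicate 1.

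The treatments could hardly be compared inside the class. With at least 10 nuclei only 2 saline animals, 1 ASO animal and no OTV animal remained. MALAT1 was higher in the high nuclei of ASO replicate 3 (9.03%) than in those of both saline animals (7.12% and 6.56%), for which the exact permutation test cannot give less than p = 0.333. The few high nuclei of the OTV animals held 3.88%, 2.35% and 2.46% of UMIs as MALAT1, and the low neurons there held 2.83%, 2.19% and 2.55%. Those of saline replicate 2, ASO replicate 1 and ASO replicate 2 held 3.85%, 6.26% and 3.95%, from at most 3 nuclei each.

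Taking animals with at least 5 nuclei brought in the 3 OTV animals, and edgeR then gave a log2 difference in MALAT1 of -1.96 between OTV and saline (SE 0.55, adjusted p = 0.00541 with Benjamini-Hochberg adjustment), with all 3 OTV values below both saline values. In that fit 1568 of 12823 genes (12.2%) passed, 452 higher and 1116 lower. The OTV nuclei in it carried LEF1, NTNG1 and OTX2 and little RGS9, as given above, so the contrast sets nuclei with thalamic genes against nuclei with striatal genes, and treatment and kind of nucleus cannot be told apart in it.

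**Figure D5:**
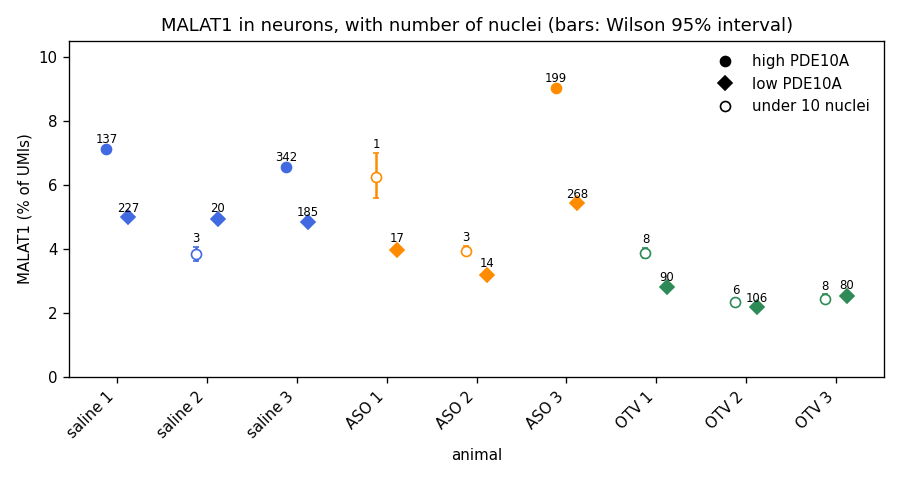
MALAT1 as a percentage of UMIs (y axis) in neurons with high PDE10A (circles) and low PDE10A (diamonds) of each of the 9 animals, with the number of nuclei above each point and Wilson 95% intervals that cover counting error only; open points rest on fewer than 10 nuclei. High lies above low in saline replicate 1, saline replicate 3 and ASO replicate 3, and all OTV points lie below 4%. From fewer than 10 high nuclei each, high also lies above low in ASO replicates 1 and 2 and OTV replicates 1 and 2. It lies below low in saline replicate 2 and OTV replicate 3. Below 4% lie also the high point of saline replicate 2 (3.85%), the low point of ASO replicate 1 (3.96%) and both points of ASO replicate 2 (3.95% and 3.20%).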

How the data were processed

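Raw UMI counts per nucleus were deposited as 1 matrix of 79994 nuclei and 29128 features, and the deposited totals equalled its column sums. Cell Ranger 6.1.2 and Seurat 4 are named in the submitters' processing notes; the build that the counts rest on is not settled here. The deposited table gives animal, cell type, cluster and doublet score of each nucleus. The authors' doublet scores were used as deposited, and no doublet caller was run. The percentage of ribosomal UMIs, deposited per nucleus, was not used. Of 206 genes in 22 lists 186 were found by symbol and the others were not analysed here.

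UMIs were summed per animal and class. CPM is the gene's share of summed UMIs. Genes were tested with edgeR 4.0.16 in R 4.3.3 (TMM, filterByExpr, robust quasi-likelihood fit, animal as block, PDE10A left out), with Benjamini-Hochberg adjustment over every tested gene. RGS9 and RARB stayed in the fit but not in the lists' counts. The procedure was tested on simulated data. Animals are the replicates. The class comparison is paired because both classes come from the same animal. The share was tested on logits by exact permutation. Alternatives used DESeq2 1.42.0, other limits and filters, and each animal left out.

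Named beside the list members are the 10 higher and 10 lower genes of smallest adjusted p with the same direction in all 3 animals. The members and lists were chosen with earlier results of these data known. Some members of the lists are counted but not reported by name here.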

Additional observations from a re-analysis of the deposited data

How the results depend on the processing

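The 3354 genes that differed between high and low PDE10A became 152 with a limit of 500 CPM and 1126 with at least 5 nuclei, both of which bring in the 3 OTV animals. With at least 5 nuclei 36.9% of the calls were higher, against 50.0%. Leaving out 1 animal gave 755 to 4802, each from the 2 animals that remain. Without the replicate block there were 2546. The DESeq2 Wald test called 2290, and the other settings lay between 2874 and 4321. The 20 genes named by rule were chosen for a common direction in the 3 animals that most repeats reuse, so a kept direction adds little. They kept it in all 273 repeats that tested them and lost the call in 18, which were repeats with 500 CPM or at least 5 nuclei. SH3RF2, ONECUT2 and ALDH1A2 were not tested in either of these settings, and RHAG was not tested with 500 CPM. The exact p of the share of neurons stayed above 0.05 in all 13 alternatives (0.0607 to 0.257 with 1 animal left out). For MALAT1 in the high nuclei the exact p was 0.0167 with a limit of 500 CPM and with at least 5 nuclei, the smallest possible for 6 animals, and 1 without either rich saline animal. No paired analysis of the treatments was possible because the labels link no animals across them. The treatment comparison of all genes had no OTV animal at 10 nuclei; its other alternatives were not run, except a limit of 500 CPM, where 1644 of 13740 genes passed between OTV and saline.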
